A study of Mus musculus with 2 samples.

Results

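A set of 49 genes that mark macrophages and other myeloid cells was followed in beta-cell samples of mice on a high-fat diet. The members were the non-control probes whose gene name in the array files is one of these 49 names, in the older spelling of the files (Emr1 is the gene of F4/80). All 49 were named on the array, by 62 probes, among 34797 gene names. On both arrays 43 members were measured, that is, had a probe well above background, among 22160 measured genes. Cd84 passed that limit in the knockout sample alone, and Gpnmb, Cd163, Msr1, Siglec1 and Retnla in neither.

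The series holds 2 one-colour mouse arrays, 1 for each genotype, so no difference has a replicate check and no test was possible. The label beta-cell is given to both samples. The strain was C57BL/6J, the age 6 months and the diet high-fat in each. CSE-WT was wild type and served as the control, and CSE-KO carried a knockout of CSE (cystathionine gamma-lyase, gene Cth), an enzyme that makes hydrogen sulfide. The comparison asks how loss of CSE alters transcript levels in these cells under the high-fat diet. How the knockout was made, how the cells were obtained and how many animals gave each sample are not stated in the labels.

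Macrophages live inside healthy islets. They depend on signalling through the CSF1 receptor, carry MHC class II and the integrin CD11c, take up material released by neighbouring cells, and are known to increase in number or change state in obesity. Their genes can be grouped by role into recognition receptors with their signalling adaptors, opsonins such as C1q, antigen presentation, lysosomal degradation and the oxidative burst. In a bulk sample, fewer cells of a type and less RNA per cell cannot be told apart.

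Levels below are log2 processed intensities minus the 75th percentile of the array, so 0 is the brightness that 1 in 4 gene probes exceeds. A difference is the level on CSE-KO minus that on CSE-WT. Its error is the spot SD, the spread between repeat spots of a probe at that level within an array. The spot SD does not cover differences between the arrays in labelling, hybridisation or scanning, and it says nothing of animals. Levels of different genes are not compared, since each probe has its own brightness.

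The insulin genes were far above background, and so were defining genes of other pancreatic cells, so the signals do not tell beta cells from whole islets. Ins1 stood at 9.92 on CSE-WT and 9.81 on CSE-KO, and Ins2 at 9.32 and 9.26. The alpha-cell gene Gcg stood at 9.52 and 9.39, and the acinar gene Amy2a5 at 8.53 and 8.11. The pan-leukocyte gene Ptprc (CD45) was above background in both samples. Which cells a myeloid transcript came from was not measured. Neither probe of Cth was well above background on either array (13.5 and 12.8 intensity units on CSE-WT, 3.15 and 3.68 on CSE-KO). Which part of Cth was removed is not stated in the labels, so no fold is given and the genotype is not checked by these signals.

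Most of the macrophage and myeloid genes were higher on the CSE-KO array, each by less than 2-fold. Of the 43 measured members 33 were higher and 10 lower (76.7% higher, against 48.7% of all measured genes). Their median difference was 0.29, against -0.01 over all measured genes. At least 1.5-fold higher were 5 members (3.1% of all genes), Itgax, Pld4, Cybb, Fcer1g and Cd86. Lyz1 was the 1 member at least 1.5-fold lower (2.5% of all genes). No member reached 2-fold, which 0.718% of all genes did upward and 0.884% downward. By more than 3 spot SDs 18 members were higher and 4 were lower, against 9.09% and 9.9% of all genes. Itgam was among the 18 only by its brightest probe, which holds a CA repeat described below.

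**Figure D1:**
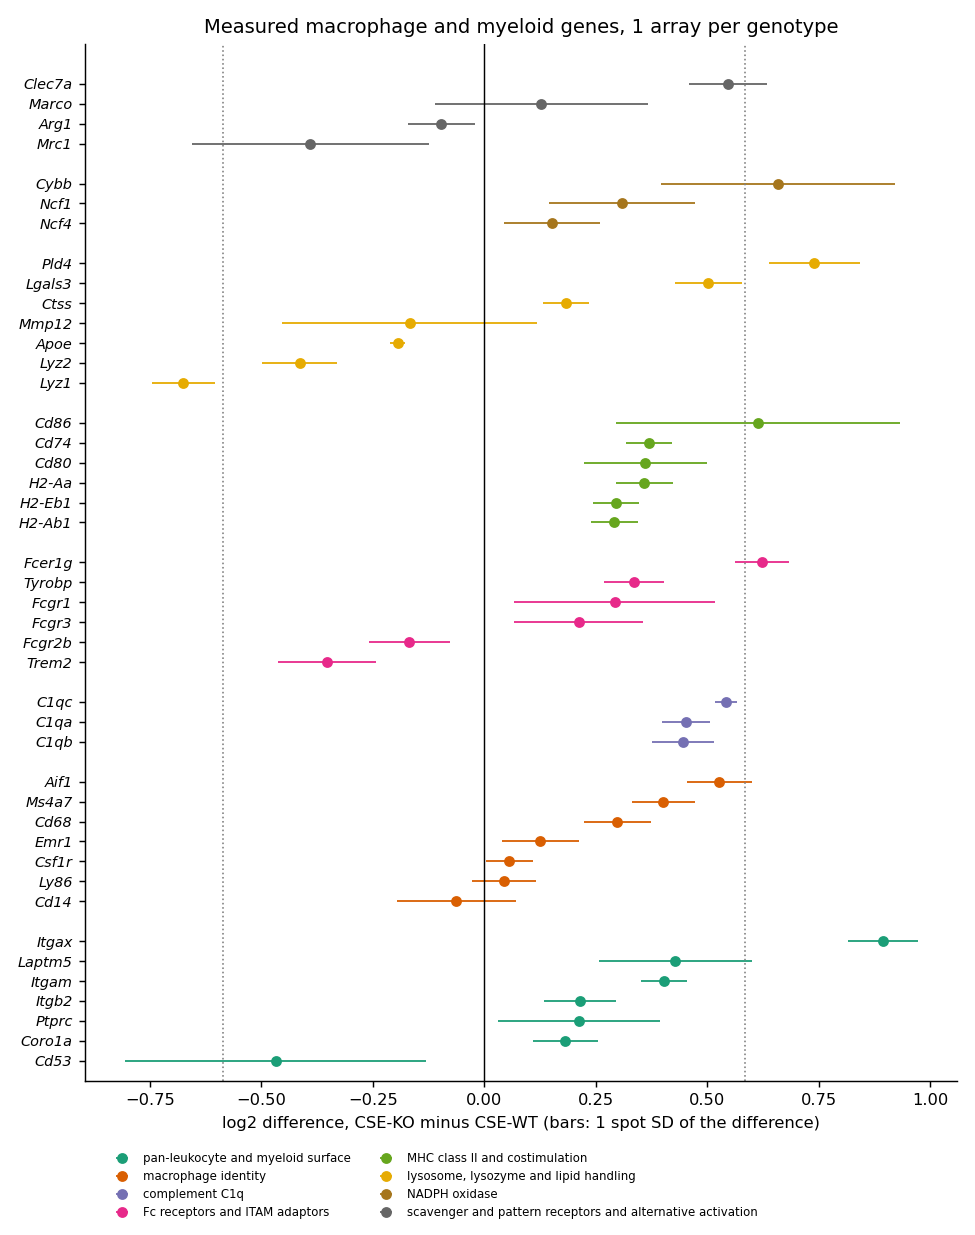
The log2 difference (CSE-KO minus CSE-WT, x axis) of each of the 43 measured members is drawn by role, with bars of 1 spot SD and dotted lines at 1.5-fold. All C1q, MHC class II, costimulation and oxidase genes lie right of 0, and Lyz1 lies furthest left at -0.68.

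The shift was not limited to dim probes. The median measured gene had a level of 0.15. Above it lay 21 members, of which 18 were higher (44% of all genes above that level), with a median difference of 0.34. Among these, 1 was at least 1.5-fold higher (0.659% of such genes) and 1 at least 1.5-fold lower (0.406%). Of the 22 members at or below it, 15 were higher, with a median of 0.21. This dimmer part held 4 of the 5 members that rose 1.5-fold or more, and 0 of its members fell that far. The share of all genes in this range is not given, so no excess is read from its counts. None of the 62 member probes lay in the local patches of the slide where neighbouring spots differed between the arrays.

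**Figure D2:**
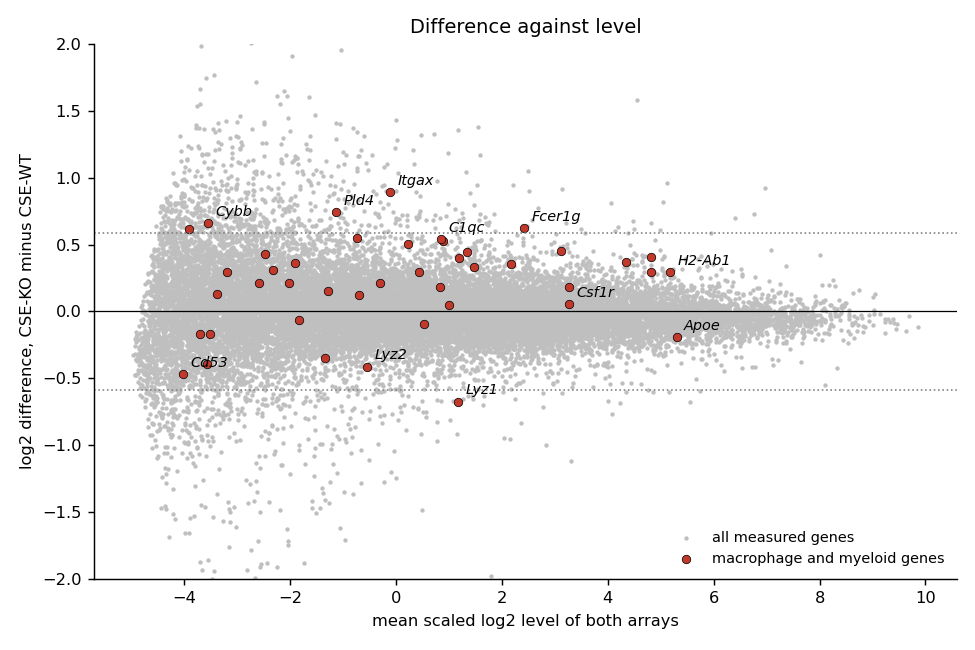
The log2 difference is plotted against the mean scaled log2 level for all 22160 measured genes (grey) and the 43 members (red), with dotted lines at 1.5-fold; 83 genes lie outside the axis limits. Members with positive differences occur from the dimmest to the brightest levels.

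The genes of C1q, the opsonin that starts the classical complement pathway and that tissue macrophages secrete, were all higher. C1qa, C1qb and C1qc encode its chains and lie side by side on mouse chromosome 4. C1qa stood at 2.89 on CSE-WT and 3.34 on CSE-KO, 1.37-fold higher (difference 0.45, spot SD 0.05). C1qb stood at 1.11 and 1.56, 1.36-fold higher (0.45, spot SD 0.07). C1qc stood at 0.58 and 1.13, 1.46-fold higher (0.54, spot SD 0.02). The C1qc probe was printed repeatedly. Its 9 usable spots on CSE-WT ranged from 0.50 to 0.64, and its 10 spots on CSE-KO from 1.07 to 1.15, so the spots of the arrays did not overlap. All spots of an array read the same sample. How many of the 399 probes printed 10 times also lacked overlap was not counted. The probes are shown because the 3 measurements come from separate sequences of neighbouring genes. On build mm9 they lie on the minus strand at chr4:136452409-136452468 (C1qa), chr4:136436578-136436637 (C1qb) and chr4:136445766-136445825 (C1qc, first 30 bases shown).
C1qa: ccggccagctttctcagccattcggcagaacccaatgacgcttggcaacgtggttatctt
C1qb: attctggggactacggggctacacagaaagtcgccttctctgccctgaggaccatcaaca
C1qc: tctgggaaccacctaatggtattattcctg

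**Figure D3:**
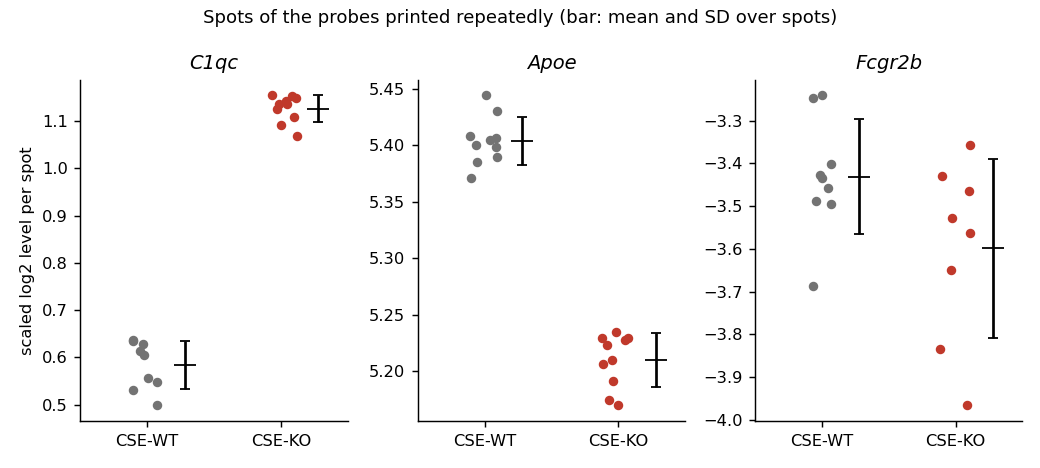
Scaled log2 levels of single spots are shown for the 3 member probes printed repeatedly, by array, with the mean and SD over spots beside them. Spots of C1qc lie higher and spots of Apoe lower on CSE-KO without overlap, while those of Fcgr2b overlap. All spots of an array read the same sample.

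Antigen presentation genes were higher in all 6 members, with a median difference of 0.36. MHC class II molecules display peptides to CD4 T cells, and Cd74 encodes the invariant chain that guards their groove during assembly. Cd74 stood at 4.16 on CSE-WT and 4.53 on CSE-KO, 1.29-fold higher (0.37, spot SD 0.05). H2-Aa, an alpha chain, stood at 2.00 and 2.36 (0.36, spot SD 0.06). The beta chain H2-Eb1 stood at 4.68 and 4.97 (0.29, spot SD 0.05). The other beta chain, H2-Ab1, stood at 5.03 and 5.32 by its brighter probe (0.29) and differed by 0.35 by its other one. These 4 genes thus differed by nearly the same amount, each by more than 3 spot SDs. The costimulatory ligand Cd80 stood at -2.09 and -1.73 (0.36, spot SD 0.14). Its relative Cd86 was dim, at -4.21 and -3.60 (0.61, spot SD 0.32). Both costimulatory genes differed by less than 3 spot SDs.

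Other genes of the class II pathway came from a list of dendritic cell markers and were picked for their role after the values had been seen. H2-DMa and H2-DMb1, which load peptide, differed by 0.37 and 0.30, and H2-Oa and H2-Ob, which restrain that loading, by 0.44 and 0.12. Ciita, the master regulator of class II transcription, differed by -0.14. The promoters of H2-Aa and H2-Eb1 are shown for the class II Y box, a site of the factor NF-Y, whose letters CTGATTGG are in capitals. RefSeq (GRCm38.p6) gives the 120 bases before their starts at chr17:34287824-34287943, minus strand, and chr17:34305747-34305866, plus strand.
H2-Aa: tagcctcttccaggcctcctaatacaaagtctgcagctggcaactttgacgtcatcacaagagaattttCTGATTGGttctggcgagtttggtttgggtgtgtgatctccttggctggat
H2-Eb1: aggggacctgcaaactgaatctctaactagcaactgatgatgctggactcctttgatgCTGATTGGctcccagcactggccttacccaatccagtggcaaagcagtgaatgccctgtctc
The match begins 51 bases before the start of H2-Aa and 62 before that of H2-Eb1. On either strand, 4.10% of all promoters of 300 bases in the RefSeq table hold these letters.

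Of the 6 genes for Fc receptors, Trem2 and the ITAM adaptors, 4 were higher. Both adaptors were among these, while the receptors were mixed, with Fcgr1 and Fcgr3 higher and Fcgr2b and Trem2 lower. Fcer1g encodes the common gamma chain of Fc receptors, which passes the signal of bound antibody into the cell. It stood at 2.11 on CSE-WT and 2.73 on CSE-KO, 1.54-fold higher (0.62, spot SD 0.06). Tyrobp (DAP12), the adaptor of TREM2 and other receptors, stood at 1.31 and 1.64, 1.26-fold higher (0.34, spot SD 0.07). Its probe spans 1728 bases of the genome (chr7:31200651-31202378, mm9, plus strand), so it crosses at least 1 intron and reads spliced transcript.
Tyrobp: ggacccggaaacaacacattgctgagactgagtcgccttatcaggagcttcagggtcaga
Trem2, the lipid-sensing receptor that pairs with Tyrobp, was lower, at -1.17 and -1.53 (-0.35, spot SD 0.11). The activating Fc receptors were dim and differed by less than 3 spot SDs. Fcgr1 stood at -3.35 and -3.05 (0.29, spot SD 0.23) and Fcgr3 at -2.12 and -1.91 (0.21, spot SD 0.14). The inhibitory receptor Fcgr2b stood at -3.43 over 9 usable spots and -3.60 over 8 (-0.17), and its spots overlapped between the arrays.

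Genes of the pan-leukocyte surface and integrins were higher in 6 of 7 members, with a median of 0.21. The highest of all members was Itgax (CD11c), an integrin of dendritic cells and of islet macrophages. It stood at -0.55 on CSE-WT and 0.34 on CSE-KO, 1.86-fold higher (0.89, spot SD 0.08). Its 1 probe lies at chr7:135294052-135294111 (mm9, plus strand), and its first 30 bases are shown, since no second probe checks the value.
Itgax: tcccatctacttttgcaacgttggaattga
Itgb2, the beta chain with which CD11b and CD11c pair, stood at -0.41 and -0.19 (0.21, spot SD 0.08). Coro1a, an actin regulator of leukocytes, stood at 0.74 and 0.92 (0.18, spot SD 0.07), and Laptm5, a lysosomal protein of blood cells, at -2.68 and -2.26 (0.43, spot SD 0.17). Ptprc stood at -2.70 and -2.49 (0.21, spot SD 0.18). The tetraspanin Cd53 was dim and lower, at -3.79 and -4.26 (-0.47, spot SD 0.34). Of these 7 genes, Itgax and, by its brightest probe alone, Itgam differed by more than 3 spot SDs.

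The value of Itgam (CD11b) depended on the probe. Its brightest probe stood at 4.61 on CSE-WT and 5.02 on CSE-KO (0.40, spot SD 0.05). The others stood at 1.10 and 1.18 (0.08, spot SD 0.07) and at -3.94 and -3.70 (0.24, spot SD 0.31). The brightest probe, at chr7:135261755-135261814 (mm9, plus strand), opens with 10 CA units, in capitals in its first 30 bases.
Itgam: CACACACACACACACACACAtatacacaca
On the array 26 gene probes hold at least 9 CA units in a row, and all 26 were measured and higher on CSE-KO, by 0.12 to 0.52 (median 0.38). The 55 probes with at least 9 TG units in a row went the other way, with 54 lower and a median of -0.21. The difference of the brightest Itgam probe thus lay among those of probes for unrelated genes that share the repeat. No other member probe held such a run. By its brightest probe without the run, Itgam differed by 0.08.

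**Figure D4:**
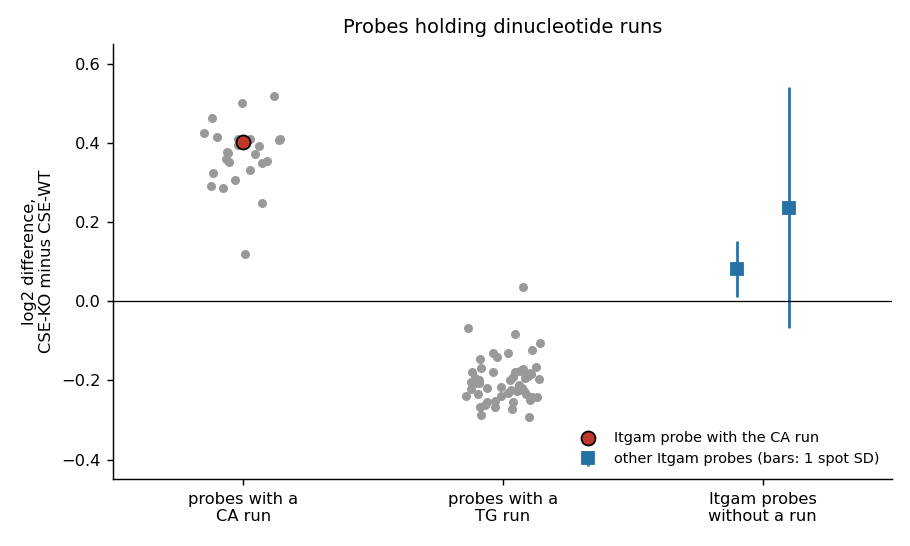
The log2 difference is shown for probes holding at least 9 CA units or 9 TG units and for the Itgam probes without a run, the latter with bars of 1 spot SD. The Itgam probe with the CA run, at 0.40, lies inside the cloud of the other CA probes.

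Of the 7 measured genes that define the macrophage lineage, 6 were higher, with a median of 0.13. The median was 0.30 over the 5 above the median level and 0.21 with no filter on dim probes. Csf1r, the receptor on which macrophage survival depends, stood at 3.24 and 3.30 by its brightest probe (0.06, spot SD 0.05). Its other probes gave 0.08 and 0.40, the latter the dimmest. Emr1 stood at -0.76 and -0.64 (0.13, spot SD 0.09), and its other probe gave 0.23. Ly86 (MD-1), a partner of a Toll-like receptor relative, stood at 0.98 and 1.03 (0.04, spot SD 0.07), and the lipopolysaccharide co-receptor Cd14 at -1.80 and -1.86 (-0.06, spot SD 0.13). By the brightest probe of each, these 4 genes were within 3 spot SDs of 0, while the dimmest Csf1r probe differed by 3.48 spot SDs.

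Within the same group, 3 genes differed by more. Aif1 (IBA1), a calcium-binding protein of activated macrophages, stood at 0.62 and 1.14, 1.44-fold higher (0.53, spot SD 0.07). The membrane protein gene Ms4a7 stood at 0.996 and 1.40 (0.40, spot SD 0.07), and the lysosomal glycoprotein gene Cd68 at 0.28 and 0.58 (0.30, spot SD 0.08). A dimmer Cd68 probe was above background on CSE-KO only. The brighter Cd84 probe stood at -5.02 on CSE-WT, not well above background, and at -4.67 on CSE-KO. Its difference (0.34) was smaller than its spot SD (0.47), so no order of the arrays is read from it.

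Lysosomal and lipid-handling genes split in both directions, with 3 of 7 higher. Their median of -0.17 is the value of the dim gene Mmp12, and over the 4 genes above the median level it was -0.0058. Pld4, a lysosomal exonuclease of myeloid cells that degrades single-stranded nucleic acid, stood at -1.51 on CSE-WT and -0.77 on CSE-KO, 1.67-fold higher (0.74, spot SD 0.10). Its probe, shown because its difference was the next highest after that of Itgax, lies at chr12:114006018-114006077 (mm9, plus strand).
Pld4: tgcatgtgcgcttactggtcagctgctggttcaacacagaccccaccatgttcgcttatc
Lgals3 (galectin-3), a lectin of phagocytes, stood at -0.03 and 0.48 (0.50, spot SD 0.08). Cathepsin S (Ctss), which trims the invariant chain in class II compartments, stood at 3.17 and 3.35 (0.18, spot SD 0.05). Apoe, the lipid-carrying apolipoprotein, was lower, at 5.40 over 10 spots and 5.21 over 10 spots, without overlap (-0.19, spot SD 0.02). The metalloelastase gene Mmp12 was dim, at -3.62 and -3.79 (-0.17, spot SD 0.29).

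Both lysozyme genes were lower, opposite to most members. Lysozymes cut bacterial cell walls, and Lyz2 is a common myeloid marker, while Lyz1 is known best from Paneth cells of the gut. Lyz1 stood at 1.51 on CSE-WT and 0.83 on CSE-KO, 1.60-fold lower (-0.68, spot SD 0.07). Lyz2 stood at -0.34 and -0.76, 1.33-fold lower (-0.41, spot SD 0.08). The genes are neighbouring copies on chromosome 10, and how far each probe binds the transcript of the other was not tested. The probes lie at chr10:116724862-116724921 (Lyz1, first 30 bases shown) and chr10:116719175-116719234 (Lyz2), both on the minus strand of mm9.
Lyz1 probe: ccaataaccacaggagcaaatctaatctca
Lyz2 probe: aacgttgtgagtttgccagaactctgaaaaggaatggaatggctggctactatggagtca
Their promoters are shown because the copies differed in the same direction. The 120 bases before the RefSeq starts (GRCm38.p6, minus strand, chr10:117292869-117292988 and chr10:117282273-117282392) agree at 111 positions (92.5%), against 67% over the whole window of 300 bases. Positions were compared without gaps, so an inserted or deleted base would lower the share beyond it. Both promoters hold, 100 bases before the start, the reverse complement of AGGAAGT, letters that the myeloid factor PU.1 can bind (capitals).
Lyz1 promoter: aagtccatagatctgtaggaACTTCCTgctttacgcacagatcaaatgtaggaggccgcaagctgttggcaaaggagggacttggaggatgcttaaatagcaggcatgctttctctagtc
Lyz2 promoter: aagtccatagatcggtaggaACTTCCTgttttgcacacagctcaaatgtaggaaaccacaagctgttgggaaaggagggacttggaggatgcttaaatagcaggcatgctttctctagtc

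Subunits of the phagocyte NADPH oxidase, the source of the oxidative burst, were higher in 3 of 3 members, although none by more than 3 spot SDs. Cybb, the catalytic subunit gp91phox, stood at -3.88 on CSE-WT and -3.22 on CSE-KO (0.66, spot SD 0.26). The cytosolic subunits Ncf1 (p47phox) and Ncf4 (p40phox) stood at -2.48 and -2.17 (0.31, spot SD 0.16) and at -1.37 and -1.22 (0.15, spot SD 0.11). Cyba and Rac2 stood in the list of other macrophage genes and were chosen for their place in the complex, with their values known. Cyba, the membrane partner of Cybb, differed by 0.43 and the GTPase Rac2 by 0.58.

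Scavenger receptors, pattern receptors and genes of alternative activation were mostly dim. Of 8 members 4 were measured, 2 higher and 2 lower (median 0.02). Clec7a (dectin-1), which recognises fungal glucan, stood at -1.02 on CSE-WT and -0.47 on CSE-KO, 1.46-fold higher (0.55, spot SD 0.09). It was the 1 gene of this group beyond 3 spot SDs. The mannose receptor gene Mrc1 stood at -3.38 and -3.77 (-0.39, spot SD 0.27), the scavenger receptor gene Marco at -3.46 and -3.33 (0.13, spot SD 0.24), and arginase Arg1 at 0.58 and 0.49 (-0.10, spot SD 0.07). The scavenger receptor genes Cd163 and Msr1, the sialic acid receptor gene Siglec1 and the resistin-like gene Retnla were not well above background on either array, and neither was Gpnmb, a glycoprotein of lipid-laden macrophages. Their levels were not measurable at this signal.

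Promoters of 36 of the 49 members were in the RefSeq table (GRCm38.p6, 250 bases before to 50 after the start). The letters GAGGAA, which PU.1 can bind, occurred on either strand in 22 of these 36 genes (61.1%), against 31.3% of all genes in the table. C1qb holds them 30 bases before its start, and its 120 bases before the start (chr4:136886201-136886320, minus strand) are shown with the match in capitals.
C1qb promoter: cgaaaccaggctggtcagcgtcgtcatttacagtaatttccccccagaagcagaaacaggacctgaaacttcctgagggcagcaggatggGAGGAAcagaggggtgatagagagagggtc
AGGAAGT, which shares letters with the former motif, occurred in 12 of 36 genes (33.3%, against 10.7%). The core of the interferon-stimulated response element (GAAA, any 2 bases, GAAA) occurred in Aif1, Ctss, Cybb and Ncf1 (11.1%, against 3.99%). CTGATTGG occurred in the pair shown above (5.56%, against 4.70%). These are matches of letters and not measured sites.

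In a wider list of other macrophage and monocyte genes, the median difference was nearer 0 than over the members. Of 60 measured genes 41 were higher (68.3%, against 48.7% of all measured genes), with a median of 0.10. That median was 0.0073 over the 25 genes above the median level. By 1.5-fold or more, 7 were higher and 2 lower (3.1% and 2.5% of all measured genes). Evi2a, a membrane protein gene of blood cells, stood at -3.55 on CSE-WT and -2.34 on CSE-KO (1.21), and Cd52, a leukocyte surface glycoprotein, at 0.88 and 1.62 (0.74). Lyve1, a hyaluronan receptor of lymphatic endothelium and some macrophages, stood at -0.51 and -1.72, 2.31-fold lower (-1.21). Cd33 was dim, at -3.87 and -4.60 (-0.73). Growth factors, their receptors and transcription factors of macrophages had a median of 0.07, with 8 of 15 higher. Irf5, which drives inflammatory macrophage genes, stood at -2.69 and -1.77, 1.89-fold higher (0.92, spot SD 0.16). Maf stood at -3.52 and -3.83 (-0.31) and Bcl6 at 1.55 and 1.29 (-0.26).

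Markers of other leukocytes did not share one direction. Dendritic cell markers, of which class II genes form a part, were higher in 11 of 14 (median 0.33). That median was 0.13 and 0.19 with normexp background correction (75th percentile and quantile scaling) and 0.12 over the 2 genes above the median level. Batf3 (0.68), Irf4 (0.53), Kmo (0.51) and Zbtb46 (0.46) differed most, each by less than 3 spot SDs, while Xcr1, Clec9a and Cd209a were not measured. Lymphocyte markers were higher in 8 of 15 (median 0.01), with Cd5 at 0.97, Gzma at 0.32, Cd22 at 0.31 and Cd2 at -0.77. Cd3d, Cd3g, Cd8a and Ms4a1 were not measured. Neutrophil markers were measured for 5 of 16, of which 2 were higher (median -0.04; Ly6g -0.21, Il1r2 0.21, Lcn2 -0.12, Elane 0.10), and S100a8, S100a9 and Mpo were not measured. Mast cell markers were measured for 2 of 7 (Kit -0.45, Tpsb2 -0.05).

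**Figure D5:**
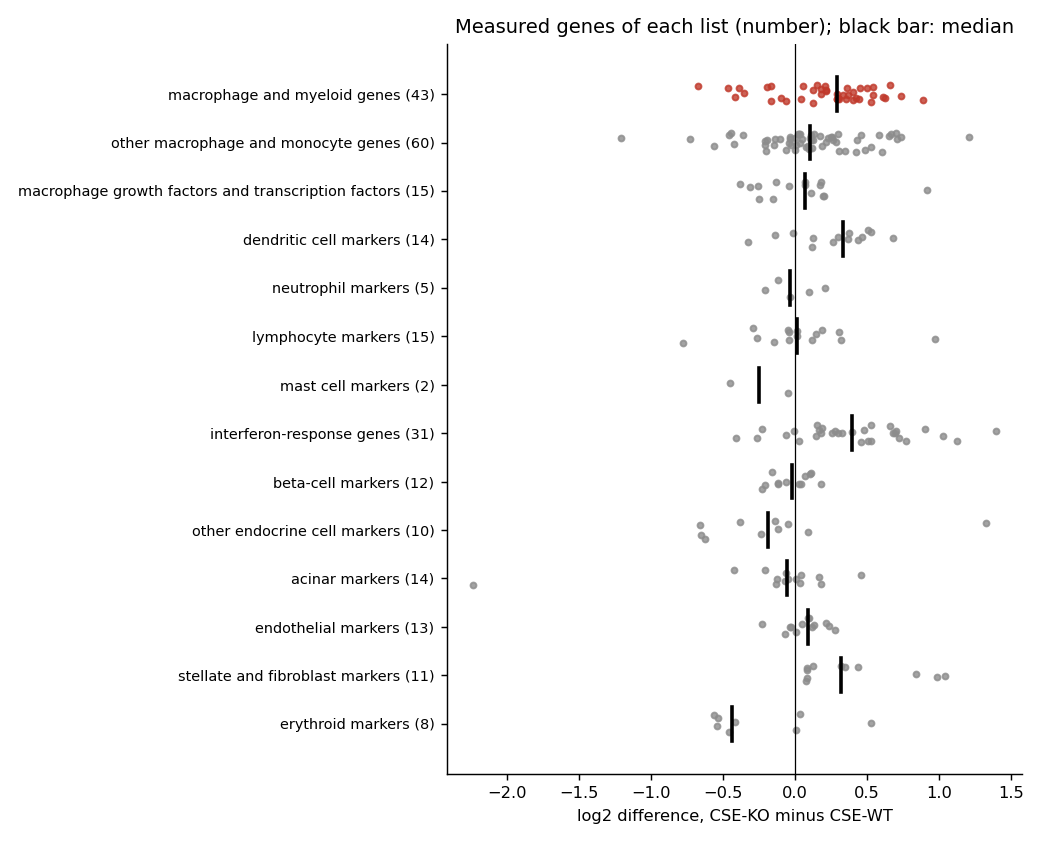
Each point is the log2 difference of 1 measured gene (CSE-KO minus CSE-WT, x axis), by list, with the number of measured genes in brackets and a black bar at the median. The members (red, median 0.29) lie right of 0 for the most part, as do dendritic cell, interferon-response and stellate lists.

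Other lists differed in the same samples as the myeloid genes, and their part in the result was not tested. Sums below add the linear scaled signals of a list, where 1 is the 75th percentile of the array. Of all measured genes, 48.7% were higher. Interferon-response genes were higher in 26 of 31, with a median of 0.40 and a sum of 47.1 on CSE-WT and 56.4 on CSE-KO, led by Oas2 (1.40), Irf7 (1.13), Mx1 (1.03) and Ifit3 (0.90). Their median was 0.29 over the 16 genes above the median level. By more than 3 spot SDs, 19 were higher and 3 lower (9.09% and 9.9% of all measured genes). All 11 measured genes of stellate cells and fibroblasts were higher (median 0.32, sums 59.4 and 65.6; Col3a1 1.04, Dcn 0.99, Col1a1 0.84, Col1a2 0.44), with a median of 0.10 over the 6 above the median level. Erythroid markers, a measure of blood in the sample, were lower in 5 of 8 (median -0.44, sums 190.3 and 140.9; Alas2 -0.56, Hbb-b1 -0.54, Hbb-b2 -0.54), with Car1 higher (0.53). Endothelial markers were higher in 9 of 13 (median 0.09; Robo4 0.28, Tie1 0.24, Erg -0.23, Emcn 0.22).

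The median differences of beta-cell and acinar markers were small, while markers of other endocrine cells were mostly lower. Beta-cell markers were higher in 6 of 12 (median -0.02; Slc30a8 -0.23, Pdx1 -0.21, Glp1r 0.18, Iapp -0.16). Acinar markers were higher in 6 of 14 (median -0.06; Ctrb1 0.46, Amy2a5 -0.42, Cela1 -0.21), with Ptf1a, in a local patch of the slide, at -2.24. Markers of other endocrine cells were higher in 2 of 10 (median -0.19, and -0.11 with quantile normalization or the authors' deposited table; Ghrl 1.33, Irx1 -0.66, Irx2 -0.62). By 1.5-fold or more, 1 of these 10 was higher and 3 were lower (3.1% and 2.5% of all measured genes). Over the members, the summed signal was 203.3 on CSE-WT and 236.4 on CSE-KO, a sum to which the Itgam probe with the CA run belongs. The sum was lower on CSE-KO over the list of other macrophage and monocyte genes, at 482.5 and 452.4. It was higher over dendritic cell markers, at 89.2 and 106.6, and lower over all measured genes, at 234760 and 229024.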

How the data were processed

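cRNA made from total RNA was labelled with Cy3, per the labels' protocols, with 1 array per genotype and hence no test. The authors deposited spot intensities quantified with Agilent Feature Extraction 10.7.1.1, with spatial and multiplicative detrending on and background correction off, per the file headers. Version 9.5.1.1 stands in the submitters' processing notes. Their deposited value table, linear intensities with normalization not given in the sources used here, served as an alternative. Outlier spots were left out (139 on CSE-WT, 169 on CSE-KO), no spot was saturated, spots of a probe were averaged on the log2 scale, and each array's 75th percentile was subtracted (519 and 540 units). A probe was measured when well above background on both arrays (57.0% of 55681 probes were above it on CSE-WT, 59.6% on CSE-KO), and a gene took its brightest measured probe. Spot noise came from 399 probes printed 10 times. The number of arrays limits the precision. Every member is named; of other lists, the 4 genes with the largest difference, plus class II and oxidase genes as stated; a few genes are not reported here. Members and lists were chosen with earlier results of these data known. Work was done in R 4.3.3 with limma 3.58.1 and Python 3.11.15, and the steps were tested on simulated data. Promoters came from RefSeq.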

Additional observations from a re-analysis of the deposited data

How the results depend on the processing

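With 1 array per genotype no replicate can be left out. No paired analysis was possible because each genotype has 1 array. The members' median lay between 0.20 and 0.34 and their share of higher genes between 72.1% and 85.7% over 12 alternatives: median, quantile and cyclic loess scaling, normexp with the 75th percentile or quantile, the authors' deposited table, no filter on dim probes, genes above the median level, the mean of probes, no patch probes, outlier spots kept, and Itgam without its CA-run probe (chosen after seeing the data). The lowest median, 0.20, came with normexp and the 75th percentile. Members at least 1.5-fold higher numbered 5 in the main setting (3.1% of all genes), but 2 under either normexp setting (0.984% and 1.06% of all genes). Over genes above the median level, which leaves 21 members, there was 1 (0.659%). They numbered 4 under cyclic loess, 6 with no filter on dim probes (7.5% of all genes) and 5 under the other alternatives. The counts under cyclic loess and the other alternatives stand without the share of all genes, so nothing is read from them. The 1 at least 1.5-fold lower (Lyz1, with 2.5% of all genes in the main setting) became 0 under both normexp settings. Both normexp settings start from the mean spot signal and its local background rather than the processed signal, and add an offset of 50 units. An offset shrinks differences of dim probes, but which of these steps changed the counts was not tested. Of 43 measured members 41 kept their sign under each alternative that gave them a value. Csf1r turned to -0.000899 under normexp with the 75th percentile, and Ly86, within 1 spot SD of 0, also changed sign. The scavenger and pattern receptor group changed the sign of its median (range -0.10 to 0.05). So did the medians of the acinar, beta-cell and neutrophil lists and of the growth and transcription factors.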
